A study of Mus musculus with 6 samples.

Results

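The genes described here are 45 genes of DNA replication and of the G1 to S transition of the cell cycle, chosen by name, of 36333 genes listed in each library. A member also had to average at least 1 TPM (transcripts per 1e+06, a share of the library) over the 6 libraries, and all 45 did. The member nearest to that minimum was Orc1, with a mean of 6.26 TPM, and no named gene lay outside it. All 45 averaged at least 1 TPM in each group taken alone. The cells were macrophages grown from the bone marrow of C57BL/6 mice, without any added allele or transgene in the labels, over 7 days with the growth factor M-CSF (macrophage colony-stimulating factor) at 10 ng/mL. After replating at 250000 cells per well in 24-well plates, 3 samples received 100 µM stearic acid, a saturated fatty acid, for 24 h and 3 received its ethanol vehicle for the same time. Polyadenylated RNA was sequenced. The sources used here give neither the age and sex of the mice nor whether replicates were separate animals or cultures. The p-values therefore describe the spread among these 6 samples, part of which may be technical.

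Each library held 58.1 to 81.0 M reads or read pairs (M, 1e+06), as recovered from low deposited values. The cells carried macrophage transcripts: all 12 macrophage markers listed passed the 1 TPM filter, and their summed level was 34500 to 35300 TPM in vehicle and 24400 to 30300 TPM in stearic acid libraries. By the test used below, 7 of the 12 were lower (58.3%) and 1 was higher (8.33%), against 11.9% and 12.8% of all tested genes. The 7 were Adgre1, Itgam, Fcgr1, Lyz2, Cx3cr1, Mrc1 and C1qa, and the 1 was Cd68. Csf1r, Mertk, Cd14 and Spi1 did not pass. Of 16 markers of progenitors and neutrophils, other cells of the marrow, 4 passed the filter. Their summed level over all 16 was 55.1 to 63.7 TPM in vehicle and 33.1 to 46.4 TPM in stearic acid. The granule genes Mpo, Elane and Prtn3 averaged 0.0238, 0.0065 and 0.0309 TPM and Ms4a3 was listed at 0 in every library, and most of the sum was Cd34, which fell from a mean of 51.2 TPM in vehicle to 27.0 TPM in stearic acid (limma adjusted p = 0.0095). S100a8 rose from 3.33 to 6.41 TPM and Mmp8 from 2.22 to 3.01 TPM (limma adjusted p = 0.016 and 0.029), so the list had 1 lower and 2 higher calls. Lymphoid, dendritic and stromal marker lists summed to at most 5.82 TPM in any library, and the erythroid and mast cell list to at most 0.333 TPM. The part of these marker levels in the results on replication genes was not tested.

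Before S phase, the origin recognition complex, Cdc6 and Cdt1 load the ring of MCM2 to MCM7 onto DNA, a step called licensing, which geminin (Gmnn) blocks by holding Cdt1. Cdc45 and the GINS complex then turn the loaded ring into an active helicase, primase and the polymerases copy the DNA, and PCNA, a sliding clamp opened by replication factor C, tethers polymerases and the flap endonuclease and ligase that finish the lagging strand. Ribonucleotide reductase, thymidylate synthase and thymidine kinase supply the deoxynucleotides. Most of these genes are transcribed from late G1 under E2F transcription factors, which the retinoblastoma proteins hold back until cyclin-dependent kinases phosphorylate them. Bone marrow derived macrophages still divide in M-CSF, so their RNA holds such transcripts. In RNA from whole cultures, fewer cells in S phase and less RNA per cell cannot be told apart.

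Stearic acid was accompanied by small decreases in part of the replication genes, with the lowest median among the enzymes of deoxynucleotide supply, and by a rise of Cdt1. Of the 45 members, 14 were lower with stearic acid and 1 was higher (limma on log2(TPM + 1), adjusted p under 0.05 over the 11551 genes that averaged 1 TPM or more). These are 31.1% and 2.22% of the members. Over all tested genes 11.9% were lower and 12.8% were higher, 24.7% in all. The other 30 members did not pass, with log2 differences of -0.27 to 0.18 and adjusted p of 0.051 to 0.95. The median log2 difference of the members was -0.17, against -0.03 for all tested genes and -0.02 for the 9052 tested genes within the members' range of levels. The difference was below 0 for 38 members and above 0 for 7 (35 and 10 with RPKM values, 37 and 8 with median-of-ratios scaling). Among all tested genes it was below 0 for 6271 and above 0 for 5280 in the main fit. In 26 members (57.8%) every stearic acid library lay below every vehicle library, which was so for 21.7% of all tested genes, and in 1 member (2.22%) every stearic acid library lay above, against 22.8%.

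The changes were small. The member differences ran from -0.45 to 0.31 on the log2 scale, and the 14 decreases were of 13.2% to 26.6% in mean TPM. None of the 45 reached a log2 difference of 0.5 in size, which 1160 of all tested genes did. The number of calls moved with single libraries, while the estimates of the called members kept their signs. When libraries were left out 1 at a time, Tk1 alone of the 15 called members passed all 6 fits, and 7 of the 15 passed 1 of the 6. Over these fits the log2 difference ran from -0.49 to -0.37 for Tk1, from -0.31 to -0.25 for Rfc5 and from 0.26 to 0.35 for Cdt1. Leaving out vehicle replicate 1 or stearic acid replicate 3 gave 2 members called lower (Rrm1 and Tk1), and leaving out vehicle replicate 2 or 3 gave 1 (Tk1). The number was 7 without stearic acid replicate 2 and rose to 17 when stearic acid replicate 1 was left out. The higher call, Cdt1, was lost when replicate 3 of either group or vehicle replicate 2 was left out. Mcm2 and Pcna were called higher beside it when stearic acid replicate 1 was left out. Counts over all genes moved too, from 550 called without vehicle replicate 2 to 5010 without stearic acid replicate 1. With no filter on low values, Rfc5, Rpa2, Rrm1 and Tk1 were called lower and Cdt1 higher. That fit differs in both the number of genes adjusted over and the standard errors.

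**Figure D1:**
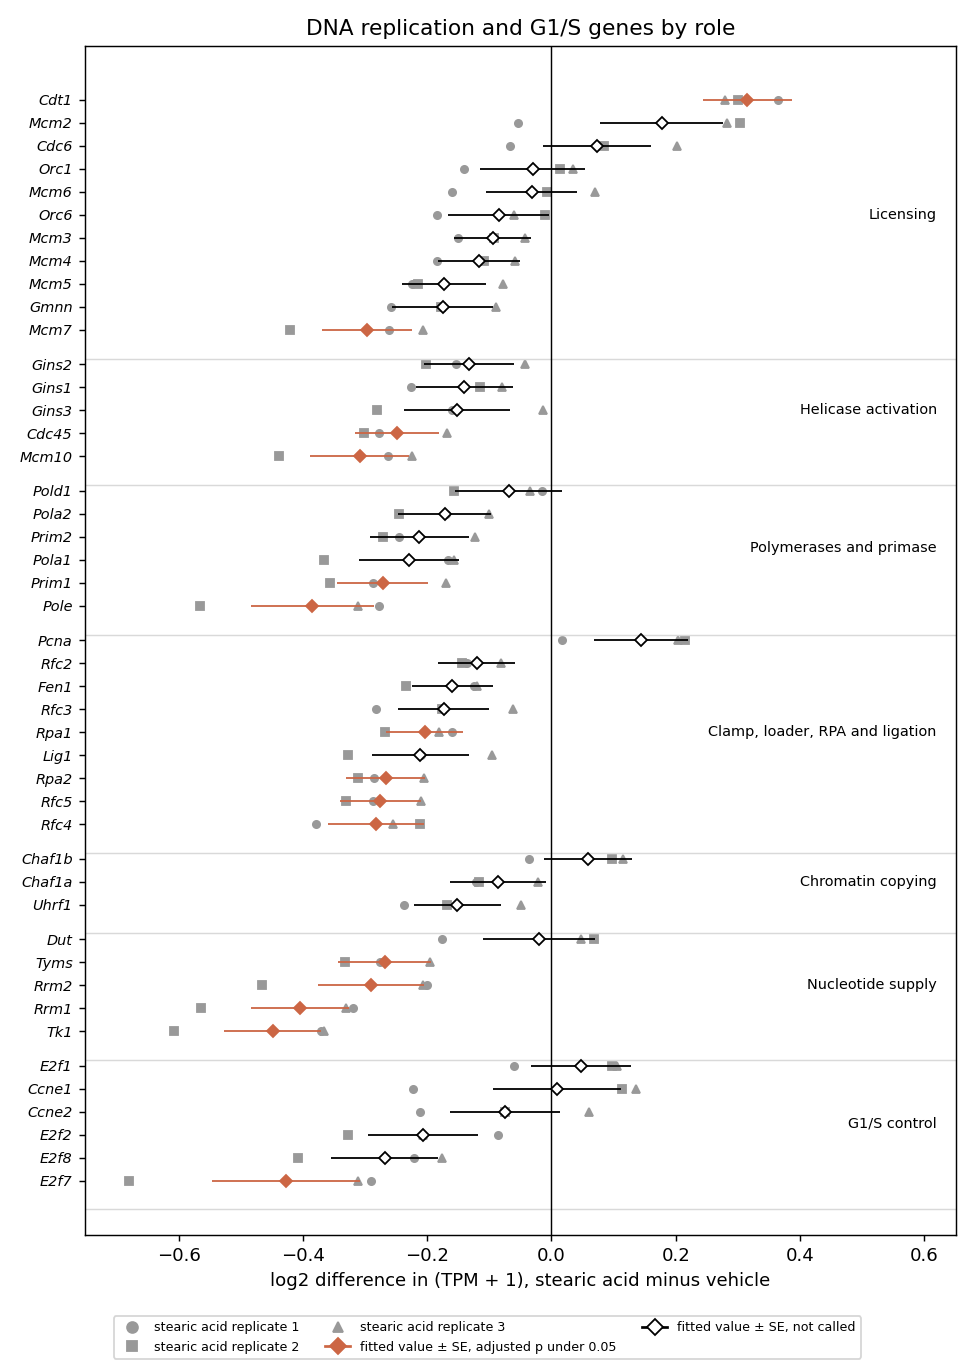
Log2 difference (stearic acid minus vehicle, log2(TPM + 1) scale) of each of the 45 members by role, with the fitted estimate and its standard error and the 3 stearic acid libraries set against the vehicle mean. Of the estimates 38 lie below 0, none lies beyond 0.5 in size, and stearic acid replicate 2 is the lowest library for 24 members.

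E2F sites are known from the promoters of many replication genes, so their upstream sequence was read from RefSeq (assembly GRCm38.p6). A window from 250 bases before to 50 after an annotated start was found for 37 of the 45 members, 43 windows in all, and not for Prim2, Gins1, Pole, Gins2, Gmnn, Rfc2, Mcm4 and Ccne2. The windows were searched on both strands for the 8-letter E2F words TTTGGCGC, TTTCGCGC, TTTCCCGC and TTTGCCGC, for CCAAT, and for TTTGAA, the letters of the CHR element (cell cycle genes homology region) known from genes expressed in G2 and mitosis. Words of different kinds were counted separately, and those on opposite strands may overlap. At least 1 E2F word stood in 15 of the 43 member windows (34.9%), against 2.26% of all 32851 windows of this length and 4.07% of the windows of tested genes. CCAAT stood in 60.5% of member windows, in 37.4% of all windows and in 38.1% of those of tested genes. TTTGAA stood in 14.0% of member windows, in 17.9% of all and in 12.3% of those of tested genes. A match is a description of letters, and an absent match says only that these letters are not in this window.

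For 4 members with an E2F word, the 150 bases before the annotated start of the window are printed because they show the words within that distance of it. Each is in the gene's own direction, 5′ to 3′, with E2F words and TTTGAA on either strand in capitals. They belong to Mcm6 (chr1:128359706-128359855, minus strand), a subunit of the helicase ring with 3 E2F words, to Orc1 (chr4:108579304-108579453, plus strand), the largest subunit of the origin recognition complex, to Gins3 (chr8:95633409-95633558, plus strand), a GINS subunit whose stretch also holds a TTTGAA, and to Pola1 (chrX:93632156-93632305, minus strand), the catalytic subunit of polymerase alpha. The start of a window can lie inside the annotated span of its gene. The stretches of Orc1, whose span begins at base 108575705, and Pola1, whose span ends at base 93632387, lie wholly inside the gene.
Mcm6: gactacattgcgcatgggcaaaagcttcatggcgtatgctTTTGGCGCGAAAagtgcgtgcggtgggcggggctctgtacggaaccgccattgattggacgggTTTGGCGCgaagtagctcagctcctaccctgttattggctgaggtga
Orc1: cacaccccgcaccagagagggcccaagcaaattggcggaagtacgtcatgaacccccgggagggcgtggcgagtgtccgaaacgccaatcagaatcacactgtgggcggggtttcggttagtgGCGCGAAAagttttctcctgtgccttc
Gins3: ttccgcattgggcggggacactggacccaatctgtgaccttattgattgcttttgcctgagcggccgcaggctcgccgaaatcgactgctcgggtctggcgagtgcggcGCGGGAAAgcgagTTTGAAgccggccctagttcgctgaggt
Pola1: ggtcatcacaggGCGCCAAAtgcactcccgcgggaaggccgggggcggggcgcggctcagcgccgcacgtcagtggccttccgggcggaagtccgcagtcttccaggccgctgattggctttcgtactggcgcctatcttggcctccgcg

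None of these 4 genes passed the test over all 6 libraries. The log2 difference was -0.03 for Mcm6 (adjusted p = 0.76), -0.03 for Orc1 (adjusted p = 0.80), -0.15 for Gins3 (adjusted p = 0.21) and -0.23 for Pola1 (adjusted p = 0.065; limma throughout). Without stearic acid replicate 1 Pola1 passed (adjusted p = 0.0278).

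The stretches of Tk1 (chr11:117826015-117826164, minus strand), thymidine kinase, and Rrm1 (chr7:102441545-102441694, plus strand), the large subunit of ribonucleotide reductase, are shown because these were the called members with the smallest p. Neither stretch holds a word in capitals. Part of the Tk1 stretch lies inside its annotated span, which ends at base 117826087.
Tk1: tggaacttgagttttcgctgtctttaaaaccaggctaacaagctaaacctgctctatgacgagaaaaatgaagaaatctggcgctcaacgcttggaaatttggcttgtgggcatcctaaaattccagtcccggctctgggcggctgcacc
Rrm1: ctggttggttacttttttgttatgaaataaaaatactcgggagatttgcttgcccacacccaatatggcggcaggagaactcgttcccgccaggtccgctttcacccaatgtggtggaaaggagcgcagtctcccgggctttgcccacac

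Among members called lower, 2 of 14 windows held an E2F word (14.3%), and among members not called 12 of 28 did (42.9%). The 2 were windows of Mcm7 and E2f7, whose stretches are not printed. The single window of Cdt1 held 1. These shares rest on few windows and the difference between them was not tested.

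Mitosis genes, the group most like the members in being tied to the cell cycle, are shown for comparison by Cdk1 (chr10:69352913-69353062, minus strand), the kinase that drives entry into mitosis, Top2a (chr11:99024190-99024339, minus strand), a topoisomerase that untangles sister chromatids, and Mki67 (chr7:135716380-135716529, minus strand), the Ki-67 antigen of dividing cells. Parts of the stretches of Top2a and Mki67 lie inside their annotated spans, which end at bases 99024199 and 135716450.
Cdk1: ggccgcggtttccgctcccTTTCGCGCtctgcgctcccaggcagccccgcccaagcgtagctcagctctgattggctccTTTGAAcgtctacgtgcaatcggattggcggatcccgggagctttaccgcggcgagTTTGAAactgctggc
Top2a: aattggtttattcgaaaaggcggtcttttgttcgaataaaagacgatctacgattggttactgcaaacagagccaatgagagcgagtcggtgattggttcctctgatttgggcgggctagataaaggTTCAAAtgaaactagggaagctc
Mki67: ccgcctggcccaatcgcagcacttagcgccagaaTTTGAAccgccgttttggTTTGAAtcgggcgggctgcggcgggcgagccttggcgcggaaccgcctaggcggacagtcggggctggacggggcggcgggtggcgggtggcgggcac

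TTTGAA stood in 26 of 33 mitosis windows (78.8%) and an E2F word in 2 (6.06%), where the members had 14.0% and 34.9%. CCAAT stood in 78.8% of mitosis windows. The stretch of Cdk1 holds both kinds of word.

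**Figure D2:**
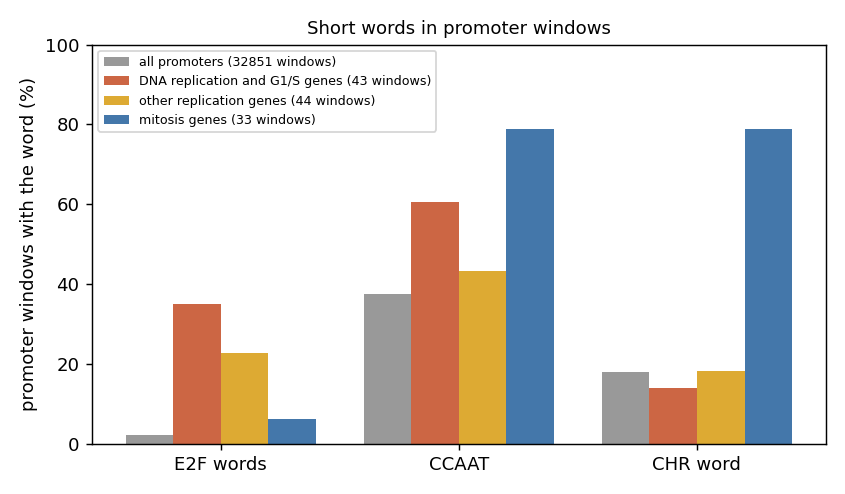
Percent of promoter windows of 300 bases that hold at least 1 E2F word, CCAAT or TTTGAA (CHR). Bars are for the members, the other replication genes, the mitosis genes and all windows. E2F words stand in 34.9% of member windows and 6.06% of mitosis windows, and TTTGAA in 14.0% and 78.8%.

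Of the 5 genes of deoxynucleotide supply 4 fell (80.0%, against 11.9% of all tested genes). The median log2 difference of the 5, -0.29, was the lowest of the 7 roles. Tk1 (gene 21877, chr11:117815519-117826087, GRCm38.p6), the cytosolic kinase that salvages thymidine in S phase, stood at 253, 248 and 252 TPM in vehicle replicates 1 to 3 and at 194, 165 and 195 TPM in stearic acid replicates 1 to 3. The stearic acid libraries lay below all vehicle libraries, replicate 2 lowest. Mean TPM fell by 26.6%, from 251 ± 2.64 to 184 ± 17.2 (SD, n = 3), with a log2 difference of -0.45 (SE 0.08, limma adjusted p = 0.0073), and leaving out any library kept the adjusted p at 0.0453 or lower.

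Rrm1 (gene 20133, chr7:102441695-102469771) stood at 277, 284 and 289.8 TPM in vehicle and 227, 192 and 225 TPM in stearic acid. The groups did not overlap, and the mean fell by 24.3% from 284 ± 6.23 to 215 ± 20.0 TPM (SD, n = 3; log2 difference -0.40, SE 0.08, limma adjusted p = 0.011). Its adjusted p was 0.0544 without vehicle replicate 2 and 0.0575 without vehicle replicate 3. Rrm2 (gene 20135, chr12:24708254-24714146), the small reductase subunit whose level limits the enzyme in S phase, stood at 365, 353 and 388 TPM in vehicle and 320.5, 267 and 319 TPM in stearic acid. It fell by 18.1% (log2 difference -0.29, SE 0.09, limma adjusted p = 0.037), with stearic acid replicate 2 again lowest and no overlap. Tyms (gene 22171, chr5:30038546-30073645), thymidylate synthase, stood at 22.0, 24.1 and 23.4 TPM in vehicle and 19.0, 18.2 and 20.1 TPM in stearic acid. The groups did not overlap, and it fell by 17.7% (log2 difference -0.27, SE 0.07, limma adjusted p = 0.032). For Rrm2 and Tyms the adjusted p was 0.0054 and 0.0264 without stearic acid replicate 1, and it was over 0.05 without any other library (0.0742 to 0.137 for Rrm2, 0.078 to 0.101 for Tyms).

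Dut, the dUTPase that keeps uracil out of DNA, behaved otherwise within this role. It stood at 31.5, 34.5 and 30.1 TPM in vehicle and 28.2, 33.6 and 33.1 TPM in stearic acid, the groups overlapped, and the log2 difference was -0.02 (adjusted p = 0.88, limma). The 5 genes summed to 949.2, 944.1 and 983.4 TPM in vehicle replicates 1 to 3 and to 788.7, 674.5 and 792.6 TPM in stearic acid. Every stearic acid sum lay below every vehicle sum. Dck, deoxycytidine kinase, belongs to the same salvage step but was not among the members. It stood at 196, 202 and 204 TPM in vehicle and 158, 125 and 149 TPM in stearic acid and fell by 28.2% (log2 difference -0.48, limma adjusted p = 0.0087; 0.0539 without vehicle replicate 2 and 0.0515 without vehicle replicate 3).

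**Figure D3:**
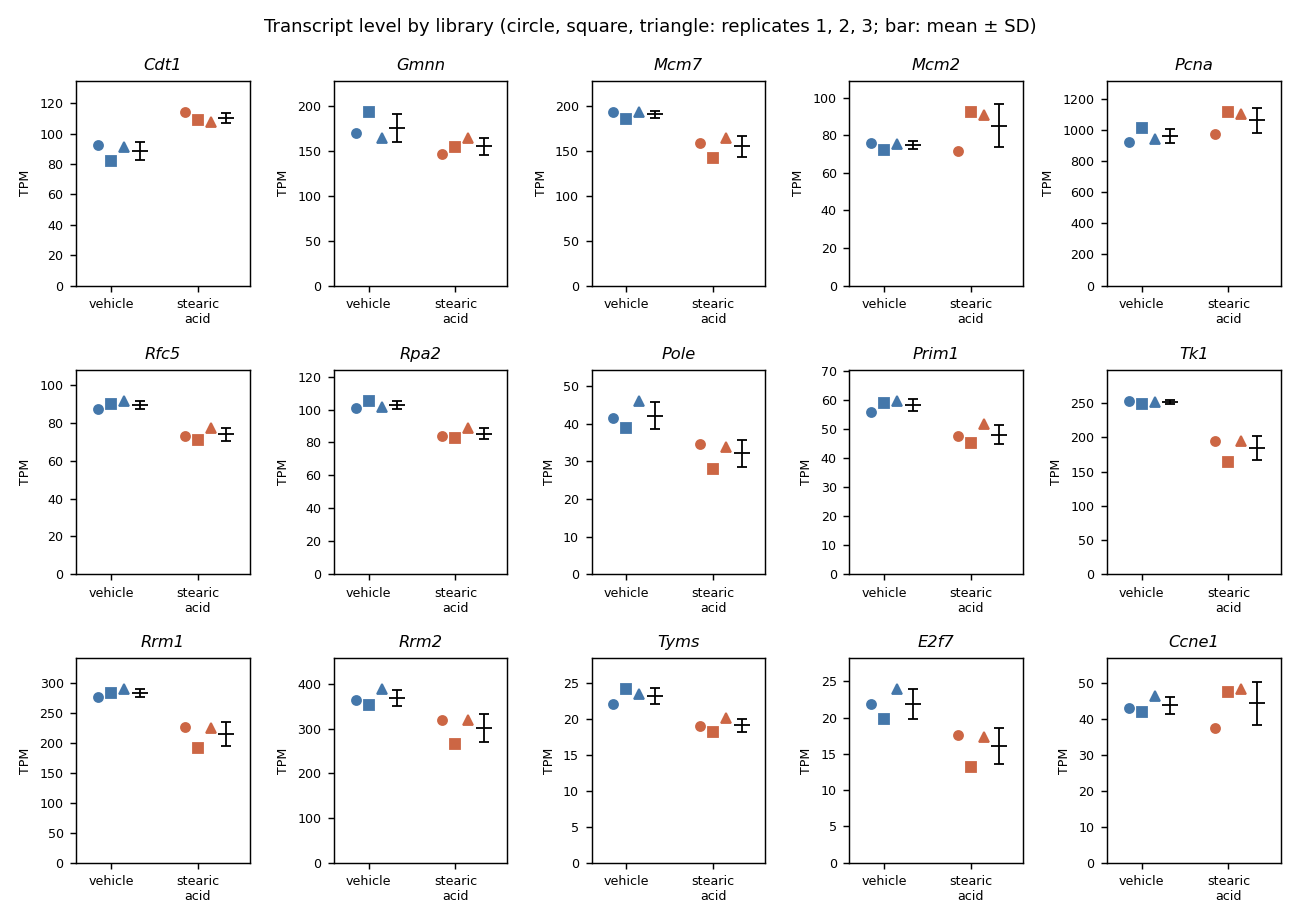
TPM in each of the 3 vehicle and 3 stearic acid libraries, with the group mean and SD, for members named in the text. The stearic acid libraries of Tk1 (165 to 195 TPM) lie below its vehicle libraries (248 to 253 TPM), and those of Cdt1 (108 to 114 TPM) lie above (81.8 to 92.3 TPM).

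Of the 11 licensing genes 1 was lower and 1 higher, each 9.09%, near the 11.9% and 12.8% of all tested genes, and the median log2 difference was -0.08. Cdt1 (gene 67177, chr8:122568015-122573130), the loader of the MCM ring, was the member that rose. Its level was 92.3, 81.8 and 91.5 TPM in vehicle and 114, 109 and 108 TPM in stearic acid. All stearic acid libraries lay above all vehicle libraries, and the stearic acid libraries differed little among themselves. The mean rose by 24.5%, from 88.5 ± 5.86 to 110.2 ± 3.44 TPM (SD, n = 3; log2 difference 0.31, SE 0.07, limma adjusted p = 0.017). Leaving out a library ended the call for vehicle replicate 2 (adjusted p = 0.0553), vehicle replicate 3 (0.0575) and stearic acid replicate 3 (0.0607). Gmnn (gene 57441, chr13:24751845-24761937), which encodes the inhibitor that binds Cdt1, stood at 169, 193 and 164 TPM in vehicle and 146, 154 and 164 TPM in stearic acid. Its groups overlapped by a narrow margin and it did not pass (log2 difference -0.18, limma adjusted p = 0.14). The ratio of Cdt1 to Gmnn TPM was 0.546, 0.425 and 0.560 in vehicle replicates 1 to 3 and 0.783, 0.707 and 0.655 in stearic acid replicates 1 to 3. The ratio was above every vehicle value in every stearic acid library. Cdt1 alone also separated the groups, so the ratio is not a result separate from the rise of Cdt1.

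The MCM genes, whose products form a ring of 1 copy each, did not move as a block. Mcm7 (gene 17220, chr5:138164583-138172111) was the subunit that fell, from 193, 186 and 193 TPM in vehicle to 159, 142 and 165 TPM in stearic acid. Its groups did not overlap, and the decrease in the mean was 18.5% (log2 difference -0.30, SE 0.07, limma adjusted p = 0.022). Without stearic acid replicate 1 the adjusted p was 0.0056, and without any other single library it was 0.0503 to 0.0844. Mcm3, Mcm4 and Mcm5 lay below vehicle in every stearic acid library, with log2 differences of -0.09, -0.12 and -0.17, and did not pass (limma adjusted p = 0.28, 0.21 and 0.088). Mcm6 stood at 199, 201 and 204 TPM in vehicle and 180.1, 200.3 and 211 TPM in stearic acid, an overlap on both sides. Mcm2 stood at 76.2, 72.2 and 75.6 TPM in vehicle and 71.9, 92.3 and 91.0 TPM in stearic acid. Its stearic acid replicate 1 lay below all vehicle libraries and the other two above, and it did not pass (log2 difference 0.18, limma adjusted p = 0.21; 0.0057 without stearic acid replicate 1). The 6 subunits together summed to 952.5, 928.2 and 962.3 TPM in vehicle and 832.7, 869.1 and 928.4 TPM in stearic acid, where the highest stearic acid sum exceeded the lowest vehicle sum by little. Orc1, Orc6 and Cdc6, which act before the ring is loaded, had log2 differences of -0.03, -0.08 and 0.07 (limma adjusted p = 0.80, 0.46 and 0.55).

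Of the 5 genes that activate the helicase, 2 fell (40.0%, against 11.9% of all tested genes). Mcm10 (gene 70024, chr2:4990724-5012791), which is needed for the loaded helicase to start, stood at 30.5, 29.6 and 31.7 TPM in vehicle and 25.3, 22.3 and 26.0 TPM in stearic acid, a decrease of 19.7% (log2 difference -0.31, SE 0.08, limma adjusted p = 0.025). Cdc45 (gene 12544, chr16:18780447-18811972), a subunit of the active helicase, stood at 46.1, 45.0 and 46.3 TPM in vehicle and 37.6, 37.0 and 40.6 TPM in stearic acid, a decrease of 16.1% (log2 difference -0.25, SE 0.07, limma adjusted p = 0.030). In both genes the groups did not overlap. Both also passed without stearic acid replicate 1 (adjusted p = 0.0081 and 0.0298) and not without any other single library (0.0614 to 0.0957 for Mcm10, 0.0651 to 0.114 for Cdc45). The GINS genes Gins1, Gins2 and Gins3, whose products complete the same helicase, had log2 differences of -0.14, -0.13 and -0.15 and overlapping groups (limma adjusted p = 0.20, 0.20 and 0.21).

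In the polymerase and primase group, 2 of 6 fell (33.3%, against 11.9% of all tested genes) and the median log2 difference was -0.22. Pole (gene 18973, chr5:110286319-110337468), the catalytic subunit of the leading strand polymerase epsilon, stood at 41.6, 38.8 and 46.1 TPM in vehicle and 34.5, 28.1 and 33.7 TPM in stearic acid. It fell by 23.9% (log2 difference -0.38, SE 0.10, limma adjusted p = 0.025). Prim1 (gene 19075, chr10:128015215-128030030), the catalytic primase subunit that makes the RNA primers, stood at 55.9, 59.0 and 59.7 TPM in vehicle and 47.5, 45.2 and 51.6 TPM in stearic acid. It fell by 17.3% (log2 difference -0.27, SE 0.07, limma adjusted p = 0.029). Neither gene's groups overlapped. Pole passed without stearic acid replicate 1 or 2 (adjusted p = 0.0024 and 0.0396) and not without another library (0.0606 to 0.102), and Prim1 passed without stearic acid replicate 1 (0.02) and not without another (0.0596 to 0.104). The polymerase alpha subunits Pola1 and Pola2 and the second primase subunit Prim2 were also below vehicle in every stearic acid library, with log2 differences of -0.23, -0.17 and -0.21, without passing (limma adjusted p = 0.065, 0.12 and 0.080; 0.0278 for Pola1 without stearic acid replicate 1). Pold1, the catalytic subunit of the lagging strand polymerase delta, had a log2 difference of -0.07 and overlapping groups (adjusted p = 0.57).

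The clamp, its loader and the genes that bind single strands or join fragments held 9 members, of which 4 fell. This was 44.4%, against 11.9% of all tested genes, and the median log2 difference of the 9 was -0.20. Rfc5 (gene 72151, chr5:117379145-117389023), a subunit of the clamp loader, stood at 87.2, 89.9 and 91.6 TPM in vehicle and 73.2, 71.0 and 77.4 TPM in stearic acid, and fell by 17.6% (log2 difference -0.28, SE 0.07, limma adjusted p = 0.020). Rfc4 (gene 106344, chr16:23113948-23127730), another loader subunit, stood at 58.5, 65.6 and 58.7 TPM in vehicle and 46.5, 52.4 and 50.8 TPM in stearic acid, and fell by 18.1% (log2 difference -0.28, SE 0.08, limma adjusted p = 0.031). In these genes each stearic acid library lay below each vehicle library. Rpa2 (gene 19891, chr4:132768360-132778746), a subunit of the protein that coats single-stranded DNA, stood at 101, 105 and 102 TPM in vehicle and 84.1, 82.5 and 89.0 TPM in stearic acid, and fell by 17.0% without overlap (log2 difference -0.27, SE 0.06, limma adjusted p = 0.020). Its partner Rpa1 fell by 13.2%, the smallest decrease called among the members (log2 difference -0.20, limma adjusted p = 0.042). Rfc4, Rfc5 and Rpa2 passed without stearic acid replicate 1 or 2 and not without another library (adjusted p of 0.077 to 0.097, 0.0584 to 0.0784 and 0.0606 to 0.0714), and Rpa1 passed without stearic acid replicate 1 (0.0217) and not without another (0.0699 to 0.153). Rfc4 did not pass with RPKM (0.081) or median-of-ratios scaling (0.0741), nor Rpa1 with RPKM (0.0581).

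Pcna, the clamp itself (gene 18538), was the most abundant member and did not follow its loader. It stood at 925, 1014 and 943 TPM in vehicle and 971, 1114 and 1105 TPM in stearic acid. The groups overlapped through stearic acid replicate 1, the mean difference was 10.7%, and the log2 difference of 0.14 did not pass (limma adjusted p = 0.18; 0.0314 without stearic acid replicate 1). Fen1, the flap endonuclease, Lig1, the ligase that seals fragments, and the loader subunits Rfc2 and Rfc3 were below vehicle in every stearic acid library, with log2 differences of -0.16, -0.21, -0.12 and -0.17 (limma adjusted p = 0.098, 0.075, 0.18 and 0.11). With a replicate block Lig1 passed (adjusted p = 0.0414). Of the 3 members that copy chromatin marks and nucleosomes, none passed (limma; also 0 at an unadjusted p under 0.05). Uhrf1, which guides maintenance of DNA methylation, had a log2 difference of -0.15, and the chromatin assembly factor subunits Chaf1a and Chaf1b had -0.09 and 0.06 (adjusted p = 0.14, 0.43 and 0.55).

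Among the 6 members that control G1 and S, 1 fell (16.7%), near the 11.9% of all tested genes that were lower. E2f7 (gene 52679, chr10:110745439-110787384), an E2F that represses other E2F target genes, stood at 21.8, 19.8 and 23.9 TPM in vehicle and 17.6, 13.2 and 17.4 TPM in stearic acid. The groups did not overlap, replicate 2 was again lowest, and the mean fell by 26.4% (log2 difference -0.43, SE 0.12, limma adjusted p = 0.032). Its adjusted p was 0.0028 without stearic acid replicate 1, 0.0461 without replicate 2 and 0.0607 to 0.123 without another library. E2f8, its closest relative and also a repressor, stood at 74.4, 67.0 and 77.4 TPM in vehicle and 62.3, 54.6 and 64.3 TPM in stearic acid. These groups did not overlap either, and E2f8 lay just outside the threshold (log2 difference -0.27, limma adjusted p = 0.051). It passed with a minimum of 5 TPM (0.049), with RPKM (0.0448), with median-of-ratios scaling (0.0304), with a replicate block (0.0167) and without stearic acid replicate 1 (0.0182), and not with no filter (0.105) or without another library (0.0652 to 0.169). The activators E2f1 and E2f2 had log2 differences of 0.05 and -0.21 (limma adjusted p = 0.68 and 0.12), and E2f2 passed without stearic acid replicate 1 (0.0234). Ccne1, a cyclin E gene whose product starts S phase with CDK2, stood at 43.2, 41.9 and 46.4 TPM in vehicle and 37.4, 47.4 and 48.2 TPM in stearic acid, which spread around the vehicle values. Its log2 difference was 0.01 and that of Ccne2 was -0.07 (limma adjusted p = 0.95 and 0.55).

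The stearic acid libraries differed among themselves by role. The median log2 difference of the 45 members from the vehicle mean was -0.20, -0.21 and -0.08 in stearic acid replicates 1, 2 and 3, where all tested genes had medians of 0.00, -0.06 and -0.02. Replicate 1 was below the vehicle mean in 43 members, replicate 2 in 36 and replicate 3 in 34. Licensing genes had medians of -0.16, -0.01 and -0.04, lowest in replicate 1. Nucleotide supply genes had medians of -0.28, -0.47 and -0.21 and polymerase genes -0.21, -0.31 and -0.14, lowest in replicate 2. The lowest of the 3 stearic acid libraries was replicate 1 in 20 members, replicate 2 in 24 and replicate 3 in 1. The 45 members summed to 5161, 5179 and 5254 TPM in vehicle and 4659, 4694 and 5024 TPM in stearic acid, with no overlap. The labels give no batch for these libraries.

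A further 44 replication genes, all of them tested, were listed beside the members. By the test (limma), 11 were lower (25.0%) and 0 higher, against 11.9% and 12.8% of all tested genes. Also 0 were higher at an unadjusted limma p under 0.05. The median log2 difference was -0.15, with medians by stearic acid replicate of -0.15, -0.20 and -0.08. The members had 14 of 45 and -0.17. The 11 were Mcm8, Dna2, Timeless, Clspn, Ticrr, Topbp1, Cdc7, Atad5, Asf1b, Dck and Samhd1. Asf1b, a histone chaperone of S phase, stood at 231, 231 and 242 TPM in vehicle and 184, 161 and 191 TPM in stearic acid. Its groups did not overlap (log2 difference -0.40, limma adjusted p = 0.010; 0.0521 without vehicle replicate 2 and 0.0574 without vehicle replicate 3). Mcm8, a relative of the ring subunits that works in recombination, fell by 0.34 on the log2 scale (limma adjusted p = 0.020) and passed without stearic acid replicate 1 or 2 and not without another library (0.0593 to 0.0789). Without stearic acid replicate 1, 3 were higher. Leaving out vehicle replicate 1, 2 or 3 changed the count of 11 to 2, 0 and 0, and leaving out stearic acid replicate 1, 2 or 3 changed it to 15, 5 and 3. With no filter it was 2.

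Of 30 regulators of the G1 to S transition, 9 were lower and 2 higher, where 11.9% and 12.8% of all tested genes were. The share of higher calls, 6.67%, was below that of all tested genes, and the share of lower calls was above it. The median log2 difference of the 30 was -0.03 with a range of -0.55 to 2.11. The 9 were the retinoblastoma family genes Rb1, Rbl1 and Rbl2, the E2F partner Tfdp2, the repressor complex subunit Lin9, and the inhibitor genes Cdkn1a, Cdkn2a, Cdkn2c and Cdkn2d. Rbl2 had the lowest difference of the list. The 2 that rose were Cdkn1c and Myc. Cdkn1c (gene 12577), an inhibitor of cyclin-dependent kinases, stood at 9.42, 5.79 and 6.35 TPM in vehicle and 30.4, 38.0 and 33.5 TPM in stearic acid. Even the lowest stearic acid library, at 30.4 TPM, lay far above the highest vehicle library. Its log2 difference was 2.11 (SE 0.16, limma adjusted p = 0.00023), and it passed without any 1 library, with an adjusted p of at most 0.0117.

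Myc (gene 17869), a transcription factor that promotes growth and entry into S phase, stood at 15.3, 14.9 and 12.1 TPM in vehicle and 18.8, 52.7 and 37.2 TPM in stearic acid. All stearic acid libraries lay above vehicle, but replicate 1 by far less than the other two. Its log2 difference was 1.19 (SE 0.30, limma adjusted p = 0.023), and the adjusted p was 0.0533, 0.0815 and 0.0998 without vehicle replicate 1, 2 or 3 and 0.068 without stearic acid replicate 3. Ccnd1, the cyclin D gene that answers growth factors, split the same libraries, at 220.1, 224 and 208 TPM in vehicle and 173, 407 and 339 TPM in stearic acid. Its replicate 1 lay below vehicle and the other two above, and it did not pass (log2 difference 0.41, limma adjusted p = 0.26). Without stearic acid replicate 1 its log2 difference was 0.77 (adjusted p = 7.78e-06), and without stearic acid replicate 2 it was 0.16. Ccnd2, Ccnd3, Cdk4 and Cdk6, the other cyclin D genes and their kinases, had log2 differences of 0.16, -0.13, 0.01 and 0.14 (limma adjusted p = 0.62, 0.25, 0.94 and 0.29). Ccnd2 followed Ccnd1 in this, with 0.48 without stearic acid replicate 1 (adjusted p = 0.0014) and -0.025 without replicate 2.

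The inhibitor genes other than Cdkn1c were lower or did not pass. Cdkn2b, with a low mean of 1.66 TPM, lay above vehicle in every stearic acid library without passing (log2 difference 0.16, limma adjusted p = 0.25). Its levels were 1.37, 1.53 and 1.65 TPM in vehicle and 1.76, 1.95 and 1.70 TPM in stearic acid. Cdkn1a, a CDK inhibitor known as a p53 target, stood at 529, 483 and 536 TPM in vehicle and 461, 409 and 444 TPM in stearic acid, below vehicle in every library (log2 difference -0.24, limma adjusted p = 0.044; 0.0527 with RPKM). Cdkn2a, Cdkn2c and Cdkn2d, which encode inhibitors of CDK4 and CDK6, had log2 differences of -0.45, -0.46 and -0.40 (limma adjusted p = 0.014, 0.035 and 0.0098), and Rb1 had -0.44 (adjusted p = 0.023). Cdkn1b, a further inhibitor, had -0.25 and overlapping groups (adjusted p = 0.29). Its difference was -0.44 without stearic acid replicate 1 (adjusted p = 0.0031) and -0.076 without replicate 2. Without 1 library, Cdkn2d lost its call for vehicle replicate 2 (adjusted p = 0.0508) and Cdkn2a for vehicle replicate 1 or 3 (0.0644 and 0.0606). Rb1 and Cdkn2c lost theirs without any 1 vehicle library (0.0636 to 0.0962 and 0.086 to 0.123) or stearic acid replicate 3 (0.0742 and 0.0814), and Cdkn1a passed only without stearic acid replicate 1 (0.0101; otherwise 0.0603 to 0.151). Over the list, 9 lower calls became 1 without any 1 vehicle library or with no filter, 10 without stearic acid replicate 1, 6 without replicate 2 and 2 without replicate 3. The 2 higher calls became 4 with RPKM, 3 with median-of-ratios scaling, 7 without stearic acid replicate 1, and 1 without any 1 vehicle library, without stearic acid replicate 3 or with no filter.

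**Figure D4:**
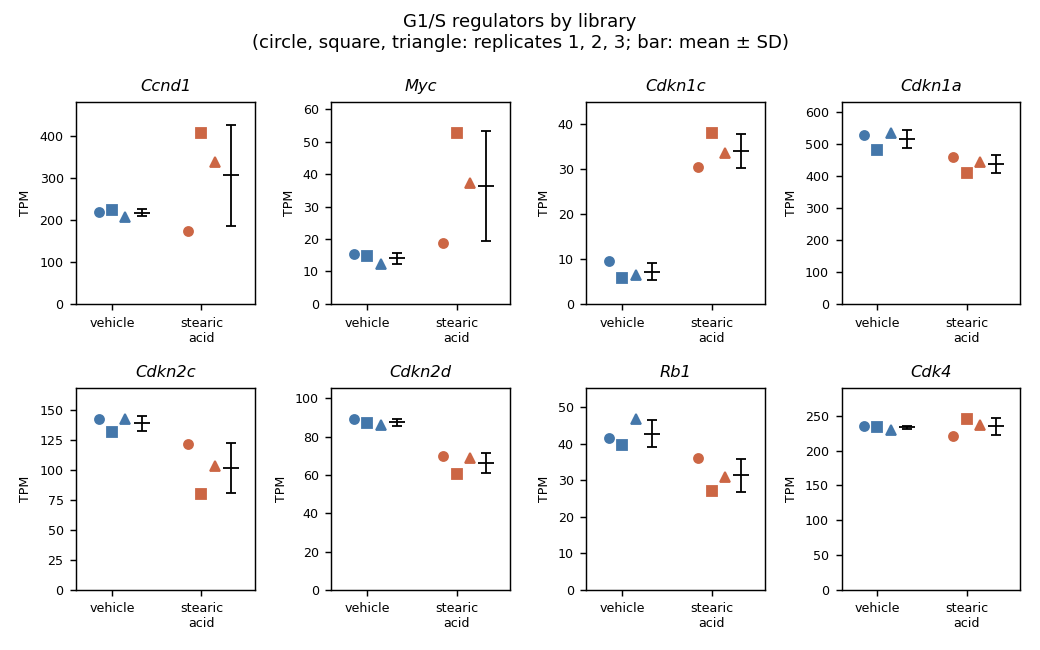
TPM in each vehicle and stearic acid library, with the group mean and SD, for regulators of the G1 to S transition named in the text. Cdkn1c stands at 5.79 to 9.42 TPM in vehicle and 30.4 to 38.0 TPM in stearic acid, and Ccnd1 and Myc are lower in stearic acid replicate 1 than in replicates 2 and 3.

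Beside the members, all 36 mitosis genes listed were tested and all 36 were lower, against 11.9% of all tested genes. The 36 had a median log2 difference of -0.48 and a range of -0.64 to -0.33. The members had a median of -0.17 and a range of -0.45 to 0.31. Medians by stearic acid replicate were -0.32, -0.69 and -0.42 for mitosis genes and -0.20, -0.21 and -0.08 for the members. Their summed level was 5444, 5431 and 5935 TPM in vehicle and 4454, 3458 and 4151 TPM in stearic acid. Cdk1, the kinase Aurka and the mitotic cyclin Ccnb2 had log2 differences of -0.46, -0.41 and -0.64 (limma adjusted p = 0.0051, 0.0059 and 0.0061) and passed without any 1 library. Mki67 stood at 284, 280.5 and 336 TPM in vehicle and 249, 184 and 220.1 TPM in stearic acid, and Top2a at 462, 458 and 515 TPM and 376, 264 and 336 TPM. Neither overlapped between groups (log2 differences -0.47 and -0.57, limma adjusted p = 0.023 and 0.014). Mki67 lost its call without vehicle replicate 1, 2 or 3 or stearic acid replicate 3 (0.0532, 0.0683, 0.0974 and 0.0626) and Top2a without vehicle replicate 2 or 3 (0.0617 and 0.0723). Leaving out vehicle replicate 1, 2 or 3 left 24, 5 and 8 of the 36, leaving out stearic acid replicate 1, 2 or 3 left 36, 34 and 25, and testing with no filter left 11. The gene lists were chosen with earlier results of these data known, and the difference between them was not tested.

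**Figure D5:**
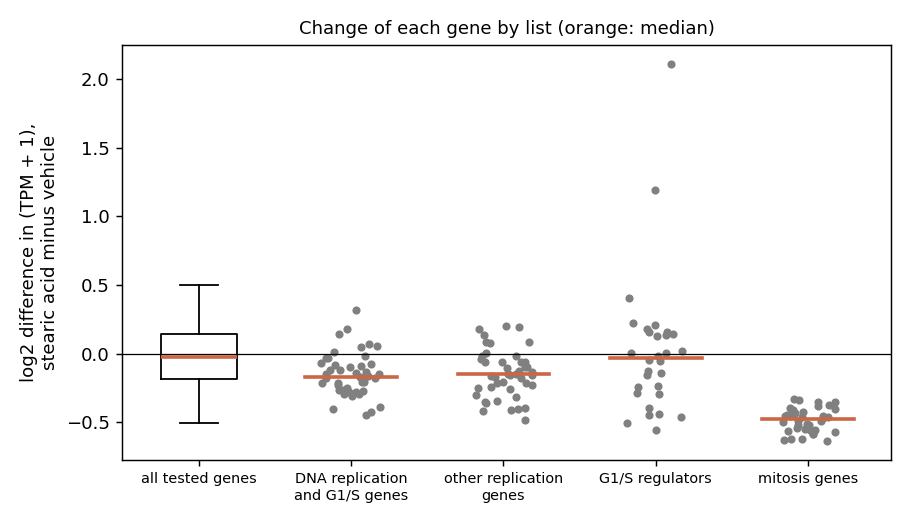
Log2 differences (stearic acid minus vehicle, log2(TPM + 1) scale) of every gene of the 45 members, the 44 other replication genes, the 30 regulators and the 36 mitosis genes, with the median of each list. The medians are -0.17, -0.15, -0.03 and -0.48, and all 36 mitosis genes lie at or below -0.33.

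For 12 members the annotated span overlaps that of another measured gene. Among called members these are Mcm7 with Ap4m1, Cdc45 with Ufd1, Rfc4 with Eif4a2, Rpa1 with Smyd4 and Tk1 with Afmid, whose means were 23.9, 49.7, 132, 10.8 and 6.68 TPM. Each of these overlaps lies at 1 end of the member's span. The span of Rpa1 ends at base 75348454 and that of Smyd4 begins at 75348433. The span of Tk1 ends at 117826087 and that of Afmid begins at 117825503. The sources do not state whether counting used strand, so reads of the overlapping stretches cannot be told apart.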

How the data were processed

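RNA from 6 macrophage samples, 3 per group, was made into stranded TruSeq mRNA libraries, per the labels' protocols. Per the file headers, the authors deposited a TPM and an RPKM value for each of 36333 genes. The submitters' processing notes name DRAGEN and the builds GRCm38 and mm10. The sources used here do not give the annotation, the counting rule or its use of strand. Of the gene numbers, 35337 matched RefSeq (GRCm38.p6), which gave coordinates, and 27 names turned into dates were restored through them where matched.

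The files hold no counts. The 11551 genes averaging 1 TPM or more over the 6 libraries were fitted with limma 3.58.1 (R 4.3.3, trended prior) on log2(TPM + 1), with treatment as the only term, and p-values were adjusted by Benjamini-Hochberg over all of them (threshold 0.05). Log2 differences are on that scale, where changes of low genes come out too small, and TPM is a share of each library. Groups came from the labels. The members and the other gene lists were chosen with earlier results of these data known. Values in every library are given for the 3 called members of each role with the smallest p and for a member called against the commoner direction. From the other lists, the 3 called genes of each direction with the smallest p and a set of named regulators and proliferation genes are given. Other names were added after their values were seen. Depth (58.1 to 81.0 M reads or read pairs, M being 1e+06) was recovered from steps between low RPKM values, of which 30.5% to 32.1% came out whole within a tolerance of 0.02, so no counts were rebuilt. Alternatives were other pseudocounts (0.1, 0.5), no filter or a minimum of 5 TPM, the deposited RPKM, median-of-ratios scaling, a replicate block and leaving out each library.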

Additional observations from a re-analysis of the deposited data

How the results depend on the processing

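The members' counts moved little under pseudocounts of 0.1 and 0.5, a minimum of 5 TPM, RPKM and median-of-ratios scaling, with 13 to 15 members lower and 1 higher. Which members passed differed: E2f8 was added under the last 3, Rfc4 was lost under RPKM and median-of-ratios scaling, and Rpa1 under RPKM. Testing all 21632 genes without a filter changed both the number of genes adjusted over and the standard errors. In that fit 4 members, 2 other replication genes, 1 regulator and 11 mitosis genes were lower, and 1027 genes were called in all. Leaving out 1 library gave 1 to 17 members lower, 0 to 3 members higher, 0 to 15 other replication genes, 1 to 10 regulators and 5 to 36 mitosis genes lower, and 550 to 5010 called genes in all. The cause of these shifts was not tested. The members' median log2 difference was -0.12 with RPKM, -0.15 with median-of-ratios scaling and -0.21 to -0.15 without 1 library. In the same fits the median of all tested genes was 0.012, -0.006 and -0.057 to 0.003. It was -0.028 in the main fit.

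Among the members and the genes of other lists refitted by name, signs turned in 7, none called over all 6 libraries. With RPKM the log2 difference was 0.0070 for Orc1, 0.013 for Mcm6 and 0.022 for Dut, and with median-of-ratios scaling it was 0.0022 for Dut. Without 1 library it ran from -0.063 to 0.025 for Orc1, from -0.083 to 0.032 for Mcm6, from -0.065 to 0.058 for Dut, from -0.055 to 0.13 for Ccne1, from -0.0090 to 0.10 for E2f1, from -0.025 to 0.48 for Ccnd2 and from -0.026 to 0.050 for Cdk4.

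Deviations of libraries with the same replicate number correlated at 0.070, 0.29 and 0.039 for replicates 1, 2 and 3. Those of libraries with different numbers correlated at -0.32 to 0.28. Vehicle replicates 1 and 2 each correlated best with the stearic acid library of the same number. Vehicle replicate 3 correlated best with stearic acid replicate 1 (0.28). Whether equal numbers mark paired samples was not tested. With the replicate block 16 members were lower, E2f8 (adjusted p = 0.0167) and Lig1 (0.0414) being added, and 1 higher, 14 other replication genes, 9 regulators and 36 mitosis genes were lower, and 3638 genes were called. The tables hold no counts, so counting error was not separated from the spread between the 3 libraries of a group.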
